A study of Mus with 2 samples.

Results

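The nuclear genes of oxidative phosphorylation were taken as every symbol of the Nduf, Sdh, Uqcr, Uqcc, Cox and Atp5 families that a fixed name pattern found in the authors' sheets for 5 cell types, together with Cyc1, Cycs and Atpif1. This gave 88 genes of 8995 listed in any sheet, of which 79 were listed in every sheet. The number listed was 80 of 3426 genes in enterocytes, 85 of 5403 in stem cells, 83 of 4537 in goblet cells, 82 of 5287 in enteroendocrine cells and 87 of 6765 in tuft cells. Genes were matched by Ensembl identifier where a symbol was ambiguous, since the tuft sheet gave the symbol Atp5o to a second identifier and listed the gene called Atp5o elsewhere as Atp5o.1. Of the 88, RefSeq (GRCm38.p6, the build also named mm10) held 87, of which 84 were protein-coding. Those 87 lay on 19 chromosomes with no more than 7 on any of them. Atp5k-ps2, Uqcrh-ps1 and Cox6c2 were annotated as pseudogenes. Reads from such copies and from their parent genes may not be separable, so values of these copies are uncertain.

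The study profiled sorted epithelial cells of the mouse distal ileum by inDrops, a droplet method of single-cell RNA sequencing. The control sample was Nav1.8Cre-/-DTA+/- and the nociceptor-ablated sample was Nav1.8Cre+/-DTA+/-, both at baseline, so both carried the diphtheria toxin allele and differed in the Cre that the Nav1.8 locus drives in nociceptive sensory neurons. Each sample pooled 3 mice, and per the deposited library sheet they were males of 8 weeks. There was 1 sample per genotype, hence no replicate, no test and no standard error for any difference. The deposited sheets call the samples group 1 and group 2 without naming the genotype of either, so a fold change here compares unnamed groups and gives no direction of nociceptor loss.

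Oxidative phosphorylation passes electrons from NADH through complex I, or from succinate through complex II, to complex III and by cytochrome c to complex IV, which reduces oxygen. Complexes I, III and IV pump protons across the inner mitochondrial membrane, and complex V, the ATP synthase, uses their return to make ATP. Most subunits are encoded in the nucleus and assemble with a small set made in the mitochondrion itself. In the intestinal epithelium, mitochondria supply energy for nutrient uptake, and mitochondrial activity is known to differ between crypt stem cells and differentiated cells.

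For each gene the sheets hold a log2 fold change of group 1 over group 2, and its detection, which is the percentage of cells with the transcript in group 1 and in group 2. The sources used here do not give the depth, or the cell numbers of each cell type and group, behind them. Fewer positive cells and a shallower library thus cannot be told apart. A gene was listed when at least 10% of the cells of either group held it. The tuft sheet had 19 and 8 distinct detection shares (groups 1 and 2) and the enteroendocrine sheet 35 and 41, so their values are coarse. Tuft shares began at 5.6% and 14.3% above 0 and enteroendocrine shares at 2.9% and 2.5%. The 87 members in tuft cells took 68 distinct fold changes, against 80 for the 80 members in enterocytes. Markers set some sheets apart and not others. All 7 tuft markers were listed in tuft cells only, all 8 enteroendocrine markers in enteroendocrine cells, all 7 goblet markers reached at least 85.4% detection in goblet cells, and all 6 stem markers were listed in stem cells, at up to 54.0%. Enterocyte markers did not set enterocytes apart by listing, with 7 of 9 listed there, 7 in goblet cells and 8 in tuft cells. All 7 goblet markers were listed in every sheet, and Tff3 was detected in 74.7% and 83.8% of enterocytes in the authors' deposited table. No fibroblast, muscle, neuronal or erythroid marker was listed in any sheet, and of 6 immune markers 1 was listed, in tuft cells.

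The genes were well detected in all 5 cell types, most of all in stem cells. The median detection of members was 68.3% of group 1 and 73.9% of group 2 stem cells, where that of all listed genes was 16.6% and 20.6%. Goblet cells followed with 47.2% and 52.0% and enterocytes with 41.4% and 44.2%. Tuft cells (38.9% and 42.9%) and enteroendocrine cells (38.2% and 40.0%) came last. Since depth per cell type is unknown, this order compares detection and not transcript levels. In enterocytes, members of complexes II and I were detected least (median of both groups' mean 33.1% and 34.0%), and complex IV most (60.0%). Stem cells had the same contrast, with 64.4% for complex I, 61.3% for complex II and 88.5% for complex IV.

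Most members had lower values in group 1 in enterocytes, stem, goblet and tuft cells, and enteroendocrine cells stood the other way. Enterocytes had a median log2 fold change of members of -0.10, stem cells of -0.13, goblet cells of -0.11, enteroendocrine cells of 0.03 and tuft cells of -0.36. Over all listed genes it was -0.03, -0.07, -0.04, -0.05 and -0.11 in the same order. A gene is called low here at a log2 fold change of -0.1 or less and high at 0.1 or more, which is a size and not a test. In enterocytes 41 of 80 members were low, where 14.4% of all genes were, and 1 was high, where 1.84% of all genes were. In stem cells 56 of 85 were low against 31.5% of all genes, and 0 were high against 0.315%. In goblet cells 46 of 83 were low against 23.1%, and 2 were high against 3.95%. In enteroendocrine cells 16 of 82 were low against 34.8%, and 29 were high against 16.1%. In tuft cells 64 of 87 were low against 58.9%, and 13 were high against 24.2%. Measured from the median of all genes instead, the low members were 25 in enterocytes, 33 in stem cells and 26 in goblet cells, where 8.06%, 12.6% and 12.1% of all genes were low. In enteroendocrine cells 9 were then low against 20.7%. At a size of 0.25, 1 member was low in enterocytes against 1.55%, 9 in stem cells against 4.39% and 7 in goblet cells against 2.76%.

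**Figure D1:**
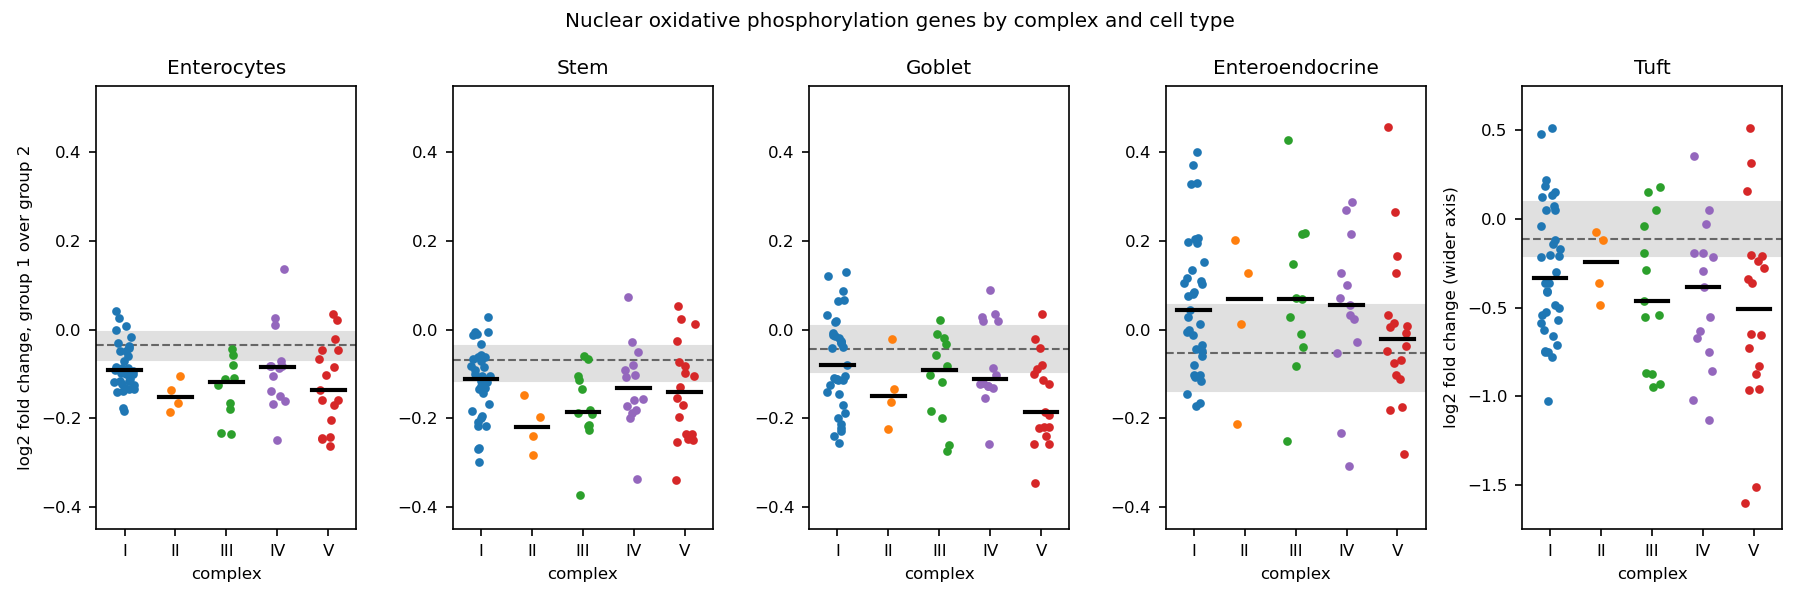
Log2 fold change (group 1 over group 2) of each member, as points grouped by complex, in 5 cell types; the tuft panel has a wider axis, points are spread sideways for display, and Cycs is not drawn. Black bars are medians of a complex, dashed lines the median of all listed genes and grey bands the span between its quartiles; the bars lie below the dashed line in 4 cell types and above it in enteroendocrine cells.

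Outside enteroendocrine cells, genes detected in at least 50% of cells had lower medians than all listed genes, and the members are often detected. Among genes detected in at least 50% of cells on average, the median in stem cells was -0.15 for 73 members and -0.19 for all 686 genes, so members lay above genes of like detection. In goblet cells the same medians were -0.12 for 41 members and -0.11 for 475 genes. In enterocytes they were -0.11 for 33 members and -0.08 for 308 genes, and in tuft cells -0.63 for 33 members and -0.32 for 352 genes. In enteroendocrine cells they were 0.04 for 28 members and -0.04 for 290 genes. The side on which members lay relative to other genes was thus kept at this detection in enterocytes, enteroendocrine and tuft cells, was turned in stem cells and came to within 0.01 of other genes in goblet cells.

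**Figure D2:**
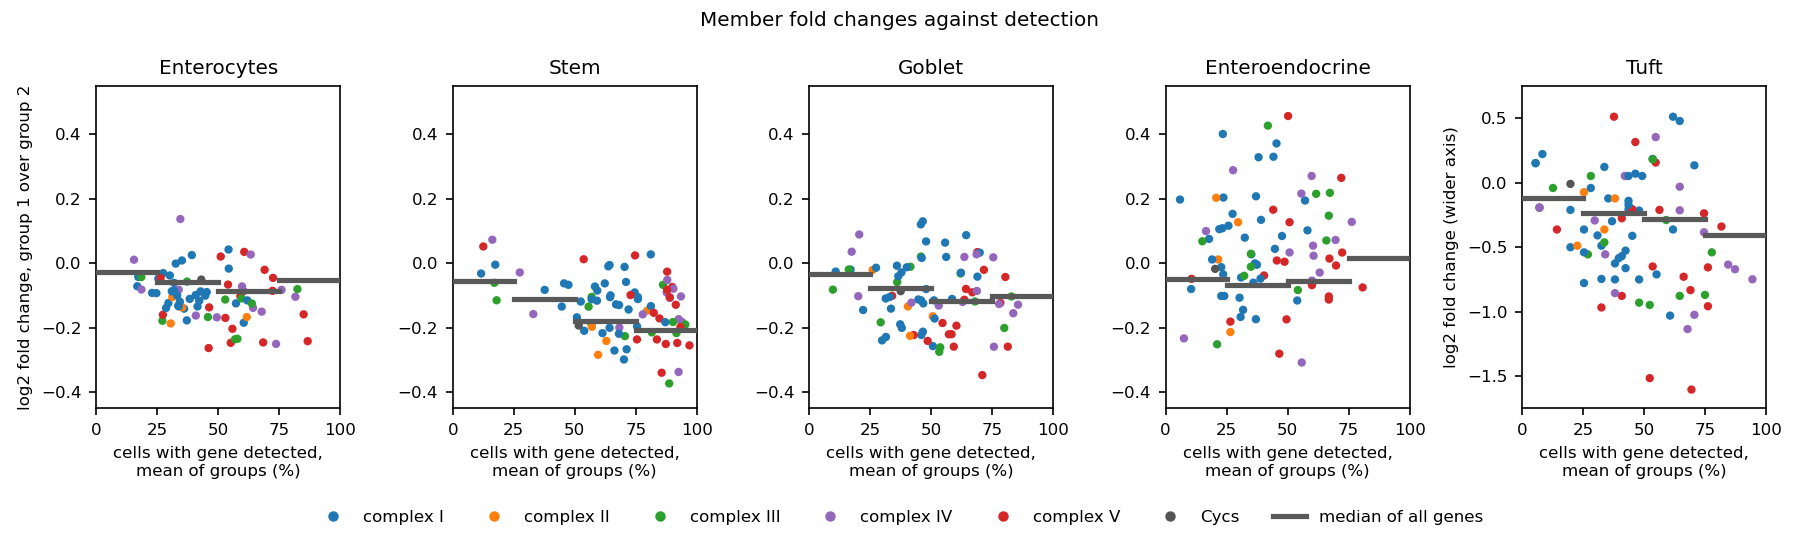
Log2 fold change of each member (vertical) against the share of cells in which it was detected, as the mean of both groups in percent (horizontal), by complex; grey bars are medians of all listed genes within 4 ranges of detection, and the tuft panel has a wider axis. In stem cells the grey bars go down from -0.05 to -0.21 with detection, and 10 of the 37 members detected in at least 75% of cells lie below the bar of their range.

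Complex I, which takes electrons from NADH, has a core that carries the flavin and the iron-sulphur clusters and a large set of accessory subunits around it. The core members had lower medians than the accessory members in all 5 cell types. In enterocytes the medians were -0.12 for 6 core and -0.09 for 28 accessory members, in stem cells -0.20 for 7 and -0.10 for 29, and in goblet cells -0.09 for 6 and -0.04 for 29. In enteroendocrine cells they were -0.04 for 6 core and 0.08 for 29 accessory members, and in tuft cells -0.41 for 7 and -0.22 for 29. Without Ndufs1, listed at 0 in group 2 of tuft cells, the tuft core median was -0.48 for 6. The tuft median of the whole complex, -0.33, did not hold its sign among members detected in at least 50% of cells, where it was 0.13.

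Ndufs8, a core iron-sulphur subunit, was low in all 5 sheets. The authors' deposited table gave it -0.18 in enterocytes, detected in 34.6% (group 1) and 39.5% (group 2) of cells. In stem cells the authors' deposited table gave -0.27 (66.9% and 75.6%), and in goblet cells -0.26 (44.6% and 56.8%). In enteroendocrine and tuft cells it was at -0.14 and -0.41 in the authors' deposited table. Ndufs7, another core iron-sulphur subunit, was lowest of complex I in stem cells at -0.30 in the authors' deposited table, and was at -0.12 in enterocytes and -0.08 in goblet cells. Ndufv1 and Ndufv2, of the NADH-oxidising part, were at -0.12 and -0.11 in enterocytes and -0.21 and -0.20 in stem cells in the authors' deposited table. Ndufs1, the largest core subunit, was detected in only 10.2% and 13.0% of stem cells in the authors' deposited table, at -0.03. It was not listed in 3 of the other sheets, and its tuft value rests on a group listed at 0.

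Among the accessory subunits, Ndufb9 was the lowest in enterocytes at -0.18 in the authors' deposited table, with detection of 59.0% and 61.8%. Ndufa8 was lowest of them in stem cells, at -0.27 in the authors' deposited table with detection of 60.8% and 71.7%, and Ndufb8 in goblet cells at -0.24. Ndufa3 was the complex I member above 0 in all 3 of enterocytes, stem and goblet cells, though others were above 0 in some of them. It was at 0.04 in enterocytes (55.7% and 52.6%), 0.03 in stem cells (81.4% and 80.9%) and 0.09 in goblet cells (64.1% and 64.6%) in the authors' deposited table. The complex I members that were high in goblet cells were Ndufa1, at 0.13 with detection of 49.2% and 43.9%, and Ndufb1-ps, at 0.12 with 50.3% and 41.2%, in the authors' deposited table. RefSeq holds Ndufb1-ps as the protein-coding gene Ndufb1. Ndufa1 was at 0.01 in enterocytes and -0.07 in stem cells in the authors' deposited table, so its value had no common sign over these sheets. Ndufa6, also near the top in enterocytes and stem cells, was at 0.03 and -0.01 in the authors' deposited table. Ndufa11, the fifth highest member in goblet cells, was at 0.07.

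Complex II, succinate dehydrogenase, has 4 subunits, all nuclear, and shares its reaction with the tricarboxylic acid cycle. All 4 were low in enterocytes and in stem cells, and 3 were in goblet cells, against 14.4%, 31.5% and 23.1% of all genes. Its median was -0.15 in enterocytes, -0.22 in stem cells and -0.15 in goblet cells, the lowest of the 5 complexes in enterocytes and stem cells. Sdha, the flavoprotein, was at -0.10 in enterocytes, -0.20 in stem cells and -0.02 in goblet cells in the authors' deposited table. Sdhb, the iron-sulphur subunit, was at -0.17, -0.15 and -0.16 in the same order in the authors' deposited table. The membrane anchor Sdhc was at -0.14, -0.28 and -0.13 in the authors' deposited table, with stem cell detection of 53.7% and 65.4%. The other anchor, Sdhd, was at -0.19, -0.24 and -0.22 in the authors' deposited table, with detection of 27.1% and 33.8% in enterocytes and 58.3% and 67.6% in stem cells. For Sdha, Sdhb, Sdhc and Sdhd the authors' deposited table gave 0.01, 0.13, 0.20 and -0.21 in enteroendocrine cells. Tuft cells had -0.49, -0.36, -0.12 and -0.07 in the same table.

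Complex III, the cytochrome bc1 complex, passes electrons from ubiquinol to cytochrome c. Cyc1, the cytochrome c1 subunit (chromosome 15, 76343513 to 76346260), was the lowest member of all in stem cells and the lowest of complex III in enterocytes. The authors' deposited table gave it -0.24 in enterocytes (54.2% and 59.4%), -0.37 in stem cells (88.0% and 89.4%) and -0.26 in goblet cells (47.2% and 60.2%). In tuft cells it was at -0.93 (38.9% and 57.1%) in the authors' deposited table. In enteroendocrine cells it was the second highest member, at 0.43 with detection of 58.8% and 25% in the authors' deposited table. Uqcrc1, a large core protein on the matrix side, was the lowest of complex III in goblet and tuft cells, at -0.27 and -0.95 in the authors' deposited table. Uqcrc2, its partner, was low in all 5 sheets, from -0.18 in enterocytes to -0.56 in tuft cells in the authors' deposited table. Uqcrfs1, the Rieske iron-sulphur protein, was at -0.17 in enterocytes, -0.23 in stem cells and 0.02 in goblet cells in the authors' deposited table. Among 7 members counted as accessory, Uqcrc1 and Uqcrc2 included, 5 were low in enterocytes, 6 in stem cells and 5 in goblet cells. Of all genes, 14.4%, 31.5% and 23.1% were low in these sheets. The assembly factor Uqcc2 was the highest of complex III in enterocytes, at -0.04 in the authors' deposited table, and was at 0.18 in tuft cells. Cycs, the soluble cytochrome c that links complexes III and IV, was at -0.05, -0.19, -0.09, -0.02 and -0.01 in enterocytes, stem, goblet, enteroendocrine and tuft cells in the authors' deposited table.

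Complex IV, cytochrome c oxidase, has a catalytic core made in the mitochondrion, and its nuclear members regulate and stabilise it. Ndufa4 was counted here because its protein is known as a subunit of complex IV despite its name, and it was at -0.17 in enterocytes, -0.08 in stem cells and -0.12 in goblet cells in the authors' deposited table. Cox4i1, the common isoform of the subunit that carries part of the regulation of the enzyme (chromosome 8, 120668225 to 120674209), was the lowest of the complex in enterocytes, stem and goblet cells. The authors' deposited table gave -0.25 in enterocytes with near equal detection of 73.9% and 73.4%, so the fold change there was not matched by a lower share of cells. In stem cells it was at -0.34 (90% and 95.1%) and in goblet cells at -0.26 (72.8% and 78.6%) in the authors' deposited table. Cox5a, also a structural subunit, was at -0.16, -0.16 and -0.13 in these cell types in the authors' deposited table.

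Cox7a1, known as the isoform of heart and skeletal muscle (chromosome 7, 30184171 to 30186030), was the only high member in enterocytes, at 0.14 with detection of 37.4% and 31.4% in the authors' deposited table. It was at 0.07 in stem cells (17.7% and 14.7%) and 0.09 in goblet cells (22.6% and 18.4%) in the authors' deposited table, and listed at 0 in group 1 of tuft cells. Its widely expressed counterpart Cox7a2 was at -0.07, -0.11 and 0.02 in enterocytes, stem and goblet cells in the authors' deposited table, with detection from 59.5% to 90.2%. Cox7a2l, a related protein known to help join complexes III and IV, was at -0.08, -0.20 and -0.12 in the authors' deposited table. It was the lowest member in enteroendocrine cells, at -0.31 (44.1% and 67.5%) in that table. The remaining common isoforms Cox6a1, Cox6b1 and Cox8a lay from -0.08 to -0.14 in enterocytes and from -0.17 to -0.19 in stem cells in the authors' deposited table. Cox6c was near 0 in these sheets, at 0.03 in enterocytes, -0.05 in stem cells and 0.03 in goblet cells in the authors' deposited table. Cox4i2, Cox6a2, Cox6b2 and Cox8b fall under the name pattern but were listed in no sheet, so they have no value here.

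**Figure D3:**
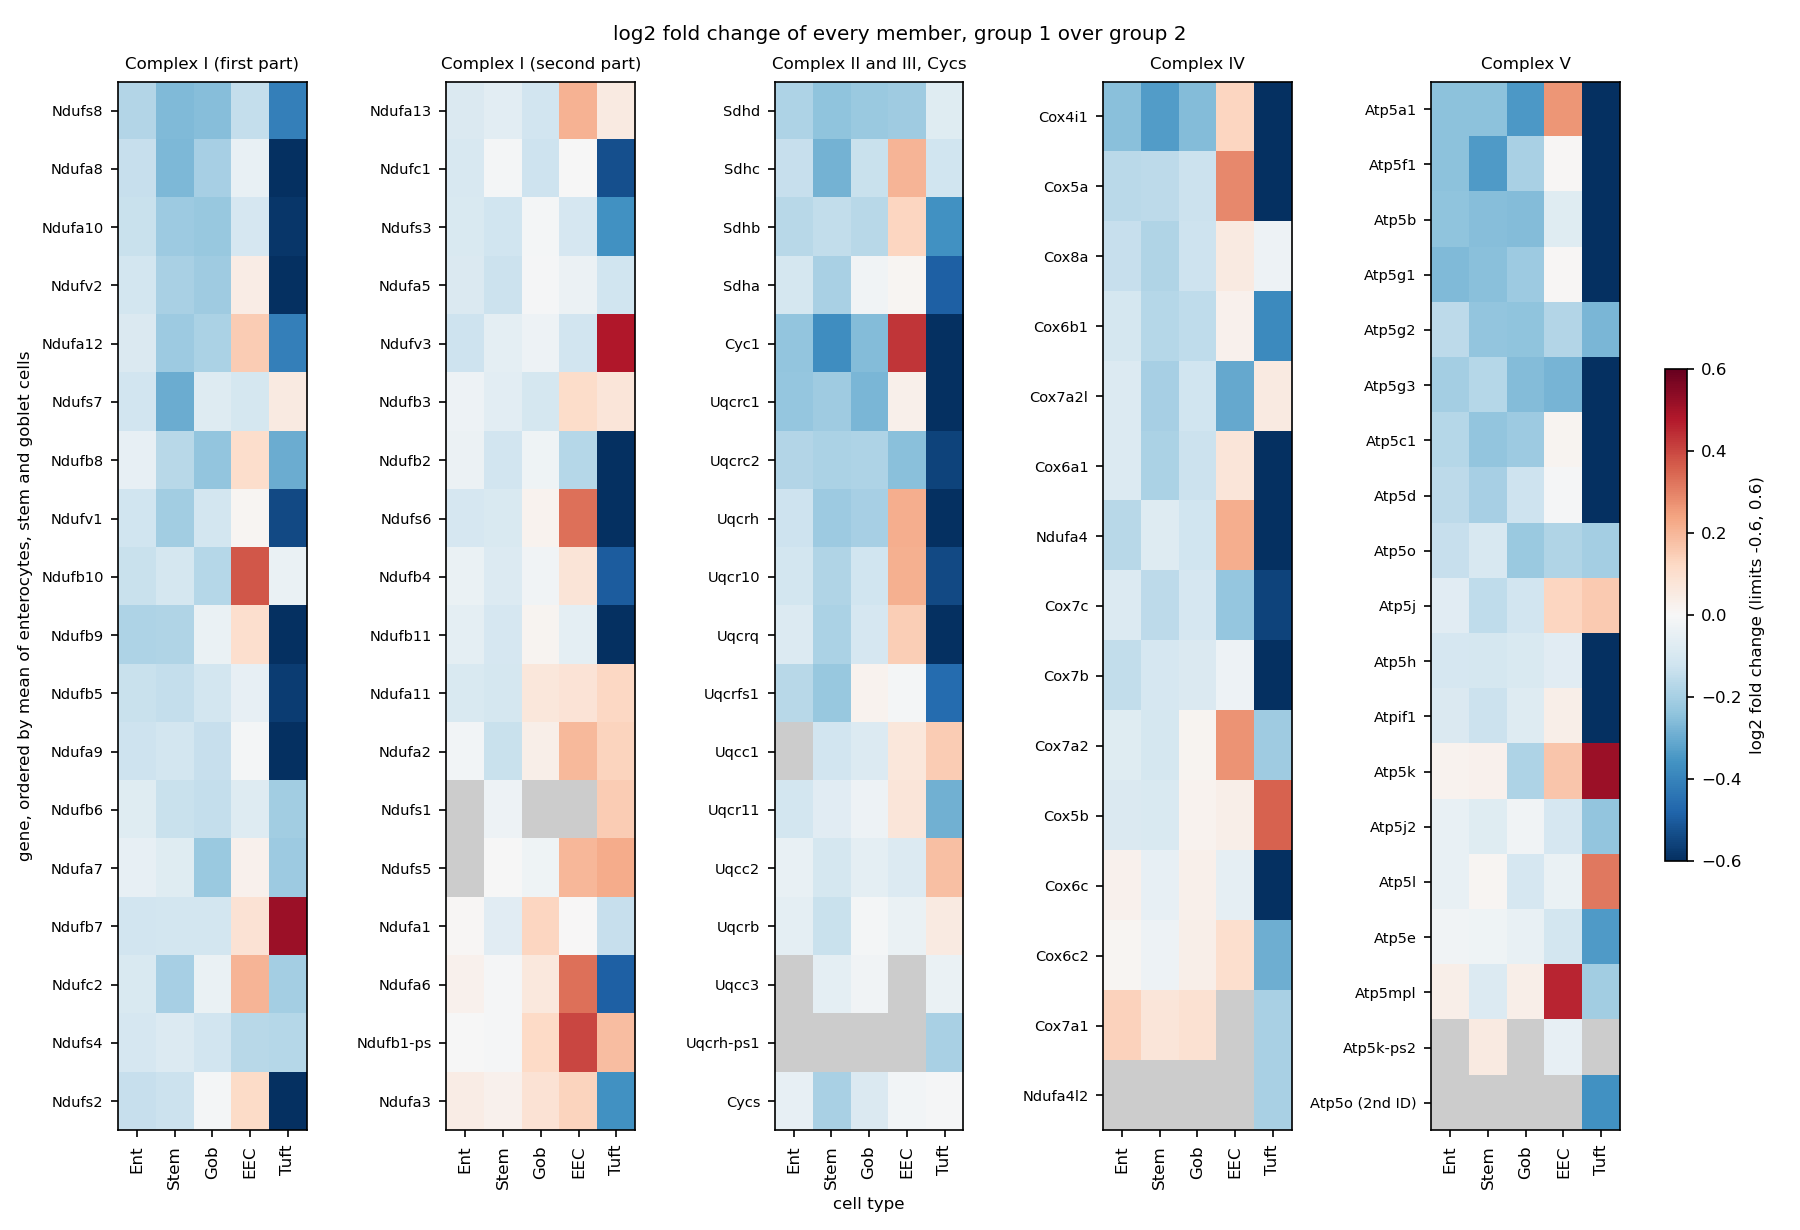
Log2 fold change (colour, group 1 over group 2) of all 88 members in enterocytes (Ent), stem, goblet (Gob), enteroendocrine (EEC) and tuft cells, split by complex and ordered from the lowest mean of the 3 leftmost columns; grey cells are not listed and colours saturate at the ends of the scale. The enteroendocrine column holds 29 high members and the 3 leftmost columns 1, 0 and 2.

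Complex V is the ATP synthase. Its head and stalk, F1, bind nucleotides and turn. Its ring of c subunits carries protons, a stator holds the head, and small membrane subunits shape the base and the dimer. In enterocytes, 7 of the 8 F1 and c ring members were low and none of the 4 small membrane members was, with medians of -0.19 and -0.01. In stem cells the same counts were 7 of 8 and 0 of 4, with medians of -0.24 and -0.03. In goblet cells they were 7 of 8 and 2 of 4, with -0.23 and -0.06. In enteroendocrine cells they were 3 of 8 and 1 of 4, with -0.04 and 0.06, and in tuft cells 8 of 8 and 2 of 4, with -0.77 and 0.05. Of all genes, 14.4%, 31.5%, 23.1%, 34.8% and 58.9% were low in the same order of cell types. Both enteroendocrine counts and the 2 of 4 in tuft cells were thus near the background. High were 1 of 8 and 2 of 4 in enteroendocrine cells, against 16.1% of all genes. In tuft cells 0 of 8 and 2 of 4 were high, against 24.2%. F1 and c ring members were also the better detected in every sheet, with a median detection of 62.1% against 55.8% in enterocytes, 87.6% against 81.3% in stem cells and 65.1% against 61.8% in goblet cells. It was 67.0% against 47.2% in enteroendocrine cells and 53.0% against 51.4% in tuft cells. The part of detection in this difference was not tested. The 4 stator members lay between, with medians of -0.12, -0.13 and -0.15 in enterocytes, stem and goblet cells.

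The catalytic subunit Atp5b (chromosome 10, 128083307 to 128090388) was at -0.24 in enterocytes, with detection of 86.5% and 86.7%, in the authors' deposited table. It was at -0.25 in stem cells (96.6% and 97.4%) and -0.26 in goblet cells (77.4% and 85.4%) in the authors' deposited table. Its partner in the head, Atp5a1, was at -0.25, -0.25 and -0.35 in the same order in the authors' deposited table, the last being the lowest member in goblet cells. The central stalk genes Atp5c1 and Atp5d were at -0.17 and -0.16 in enterocytes and -0.24 and -0.20 in stem cells in the authors' deposited table. Atp5e, the smallest F1 subunit, was the F1 member that was not low in enterocytes, stem or goblet cells, at -0.02, -0.03 and -0.04 in the authors' deposited table.

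Atp5g1, Atp5g2 and Atp5g3 encode the same mature c subunit from separate genes on chromosomes 11, 15 and 2. In enterocytes they were at -0.26 (42.0% and 50.0%), -0.16 (23.7% and 30.8%) and -0.20 (54.5% and 57.0%) in the authors' deposited table, and Atp5g1 was the lowest member of all. In stem cells they were at -0.25, -0.24 and -0.17, and in goblet cells at -0.22, -0.24 and -0.26, in the authors' deposited table. Enteroendocrine cells had 0.01, -0.17 and -0.28 in the authors' deposited table, and tuft cells -0.97, -0.28 and -1.51. All 3 genes thus lay below 0 in every sheet, except Atp5g1 in enteroendocrine cells.

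Of the small membrane subunits, Atp5k was at 0.02 in enterocytes (51.4% and 50.5%) in the authors' deposited table, where Atp5c1, with like detection of 51.5% and 54.2%, was at -0.17. Atp5k was at 0.02 in stem cells (75.5% and 73.9%) and at -0.18 in goblet cells (50.8% and 58.5%) in the authors' deposited table. Atp5mpl was at 0.04, -0.08 and 0.03 in enterocytes, stem and goblet cells in the authors' deposited table, and at 0.46 it was the highest member in enteroendocrine cells (52.9% and 47.5%). Atp5l had -0.05, 0.01 and -0.10 and Atp5j2 had -0.05, -0.07 and -0.02 in the authors' deposited table. Of the stator, Atp5f1 was the lowest in enterocytes and stem cells, at -0.25 and -0.34 in the authors' deposited table. Atpif1, the inhibitor that stops the synthase from hydrolysing ATP, was at -0.09, -0.13 and -0.08 in enterocytes, stem and goblet cells and 0.03 in enteroendocrine cells in the authors' deposited table.

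**Figure D4:**
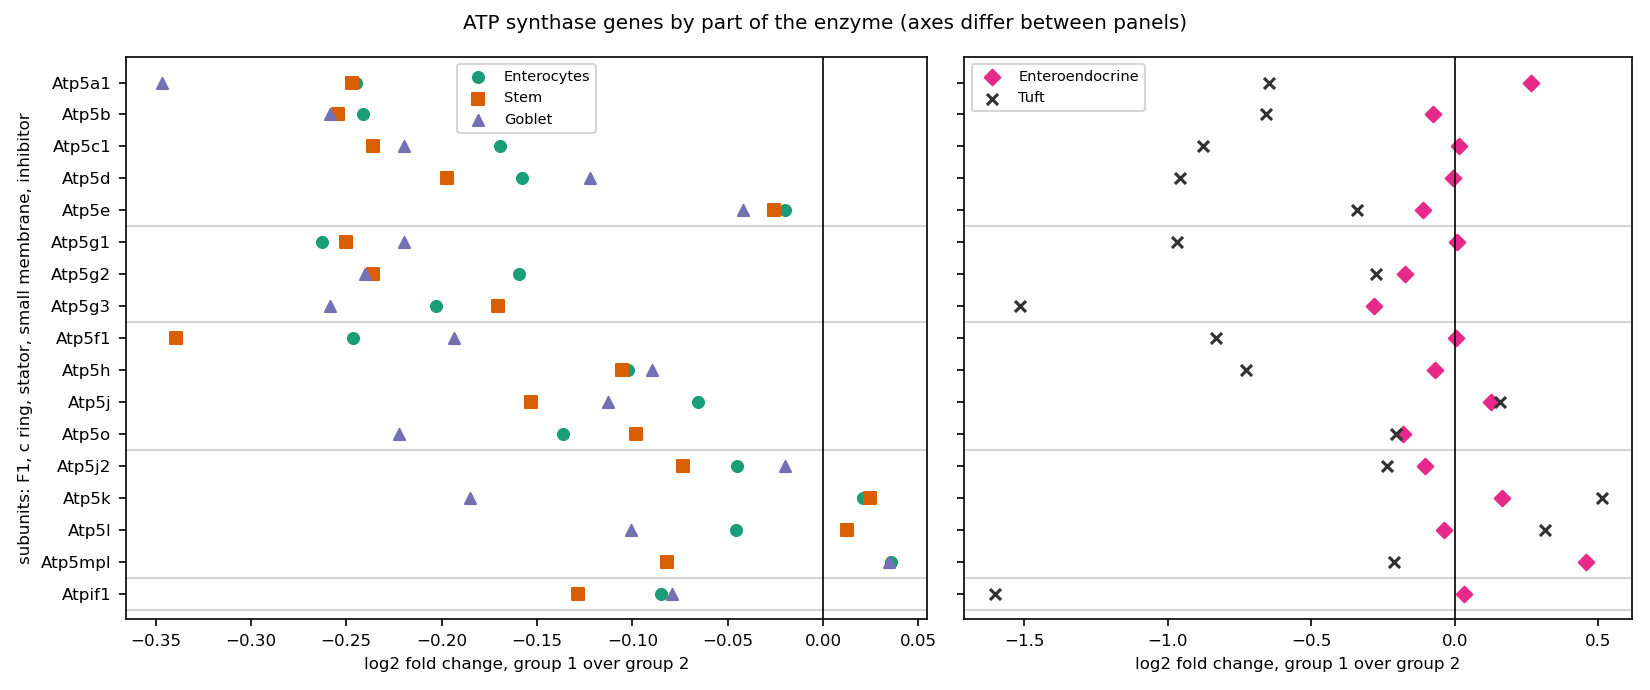
Log2 fold change (group 1 over group 2) of 17 ATP synthase genes, rows grouped from top to bottom as F1, c ring, stator, small membrane subunits and inhibitor; enterocytes, stem and goblet cells are on the left and enteroendocrine and tuft cells on the right, with different axes. On the left the F1 and c ring rows, apart from Atp5e, lie at or below -0.12, and most small membrane rows lie near 0.

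Of the 80 members listed in enterocytes, stem and goblet cells, 29 were low in all 3, where 10.8% of the 2863 genes listed in these sheets were, and 10 members passed the size in none of them. Among genes detected in at least 50% of cells in each of these sheets, 15 of 33 members (45.5%) and 85 of all 219 (38.8%) were low in all 3, so the share of members was close to that of genes of like detection. Of the 29, 25 were also low in tuft cells, 9 were high in enteroendocrine cells and 6 were low there. Of all members, 64 of 87 were low in tuft cells, and 29 of 82 were high and 16 of 82 low in enteroendocrine cells. The shares of all genes were 58.9%, 16.1% and 34.8%. The enteroendocrine counts among the 29 were thus near those of all members. The 9 that were high there were Atp5a1, Cox4i1, Cox5a, Cyc1, Ndufb10, Sdhb, Sdhc, Uqcr10 and Uqcrh. Low in all 5 sheets were Atp5g2, Atp5g3, Ndufa10, Ndufs8 and Uqcrc2. Cox7a1 and Ndufa3 were the members above 0 in all 3 of enterocytes, stem and goblet cells. No share of all genes is given for these last overlaps. The same holds for the members that passed the size in none of 3 sheets, so these counts have no background. All these values come from the same pair of samples, so sheets are not independent observations of genotype.

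In enteroendocrine cells, the hormone-secreting cells, members were more often high than in any other sheet, with medians above 0 for complexes I to IV (0.04, 0.07, 0.07 and 0.05) and of -0.02 for complex V. Following Atp5mpl and Cyc1, the highest were Ndufb1-ps, Ndufb10 and Ndufs6 in the authors' deposited table, at 0.40 (29.4% and 17.5%), 0.37 (55.9% and 35.0%) and 0.33 (55.9% and 32.5%). Following Cox7a2l and Atp5g3, the lowest were Uqcrc2, Sdhd and Atp5o at -0.25, -0.21 and -0.18 in the authors' deposited table. Ndufb2 was the lowest of complex I there at -0.17 (26.5% and 47.5%) in the authors' deposited table. Measured from genes with detection of 70% or more on both sides, the median of members was -0.0019, so their place above other genes depends on that choice. Of the 82 members, 51 were detected less often in group 1 than in group 2, as were 67.4% of all genes in this sheet. Fold change and detection could be opposed, as for Cox4i1, at 0.13 with detection of 67.6% and 85.0% in the authors' deposited table. Some hormone and secretory markers of these cells differed by far more. Of 8 listed, 3 were low and 4 high, against 34.8% and 16.1% of all genes. Their summed detection was 444 points in group 1 and 468 points in group 2. Tph1, Chga and Chgb were at -1.27, -1.22 and -1.21, and Pyy and Sct at 1.62 and 1.19, in the authors' deposited table. Cck, Gcg and Neurod1, at 0.21, 0.17 and 0.01 in that table, lay within the range of the members. Enterocyte markers also differed: 6 of 9 were listed, 5 of them low, with a summed detection of 306 points in group 1 and 368 points in group 2. The part of either list in the result was not tested.

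In tuft cells, the chemosensory cells, members had the widest spread of any sheet, from -1.60 to 0.51. Atpif1 (chromosome 4, 132530555 to 132535450) was lowest at -1.60 in the authors' deposited table, with detection of 38.9% and 100%, and it had the widest range over cell types of any member. It was followed by Atp5g3 at -1.51 (33.3% and 71.4%) and Ndufa4 at -1.13 (50.0% and 85.7%) in the authors' deposited table. The authors' deposited table gave Ndufb9 -1.03 and Cox7b -1.02. The highest were Atp5k and Ndufb7, both at 0.51, with detection of 61.1% and 14.3% and of 66.7% and 57.1% in the authors' deposited table. Ndufv3 was at 0.48, Cox5b at 0.35 and Atp5l at 0.32 in the authors' deposited table. For 7 members the detection share was 0 in group 1 or group 2, so their fold changes rest on an unknown offset of the scale. They make up 4 of the low and 3 of the high tuft members. Without them 60 of 80 were low and 10 high, with a median of -0.40. Enterocyte markers again differed: 8 of 9 were listed, 6 of them high, where 24.2% of all genes were. They had a summed detection of 333 points in group 1 and 272 points in group 2. Their part in the result was not tested.

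In the sheets with finer detection, marker lists also differed between the groups. Of all genes in enterocytes, stem and goblet cells, 14.4%, 31.5% and 23.1% were low and 1.84%, 0.315% and 3.95% high. In enterocytes, goblet markers (7 of 7 listed, 6 low) summed to 309 points of detection in group 1 and 374 points in group 2, and enterocyte markers (7 of 9 listed, 4 high) to 531 and 493 points. In stem cells, stem markers (6 of 6 listed, 5 low) summed to 129 and 170 points, and goblet markers (7 of 7, 6 low) to 306 and 384 points. In goblet cells, enterocyte markers (7 of 9 listed, 6 high) summed to 361 and 340 points and Paneth markers (5 of 5, 4 high) to 163 points in both groups. Their part in the members' values was not tested.

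The mitochondrially encoded subunits, the partners of the nuclear members in complexes I, III, IV and V, number 13. Of these, 11 were listed in enterocytes with a median of -0.03, 5 low and 1 high. In stem cells 13 were listed with a median of -0.12, 8 low and 1 high, and in goblet cells 11 with a median of -0.11, 6 low and 1 high. In enteroendocrine cells 11 were listed with a median of 0.01, 1 low and 3 high, and in tuft cells 12 with a median of -0.53, 7 low and 1 high. All genes were low in 14.4%, 31.5%, 23.1%, 34.8% and 58.9% of cases in enterocytes, stem, goblet, enteroendocrine and tuft cells. They were high in 1.84%, 0.315%, 3.95%, 16.1% and 24.2%. The low count in tuft cells was thus near the background. The high gene in enterocytes, stem and goblet cells was mt-Co1, of the catalytic core of complex IV, at 0.26, 0.15 and 0.28 in the authors' deposited table. Its nuclear partner Cox4i1 lay on the other side of 0 in the same sheets. mt-Atp6, the proton channel subunit beside the c ring, was at -0.21, -0.33 and -0.28 in the authors' deposited table.

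Other mitochondrial lists are given beside the share of all genes in the same sheet. In enterocytes, where 14.4% of all genes were low, of 36 mitochondrial ribosomal protein genes 5 were low (median -0.06), of 13 tricarboxylic acid cycle genes 3 were (-0.06), of 7 assembly factors 0 were (-0.04), and none of these was high. In stem cells (31.5% of all genes low) the counts were 41 of 79 (median -0.10), 9 of 13 (-0.13) and 2 of 26 (-0.06), and in goblet cells (23.1%) they were 19 of 61 (-0.06), 3 of 12 (-0.03) and 1 of 14 (-0.03). In enteroendocrine cells 15 of 57, 4 of 10 and 6 of 18 were low against 34.8% of all genes, and 10, 0 and 2 were high against 16.1%. In tuft cells 45 of 64, 8 of 13 and 11 of 20 were low against 58.9%, the last pair being near that background, and 4, 1 and 4 were high against 24.2%. Carriers and porins, which move ADP, ATP and phosphate, were low in 3 of 5, 4 of 5, 5 of 5, 4 of 6 and 3 of 5 cases, in the order enterocytes, stem, goblet, enteroendocrine and tuft cells. The low count in tuft cells was near the 58.9% of all genes. High were 1 of 6 in enteroendocrine and 2 of 5 in tuft cells, against 16.1% and 24.2%, and none in the other sheets. Slc25a5, an ADP and ATP exchanger of this list, was at -0.15, -0.36, -0.13, -0.37 and -0.36 in the authors' deposited table. The porin Vdac2 was at -0.12, -0.27, -0.13, 0.14 and 0.37 in that table. Ndufab1 and Usmg5, subunits that the name pattern leaves out, lay between -0.01 and -0.18 in enterocytes, stem and goblet cells, and both had the same value, 0.23, in enteroendocrine cells in the authors' deposited table. Tuft cells had 0.16 and 0.22 in the authors' deposited table. Of the regulators of mitochondrial biogenesis, between 2 and 4 of 9 were listed per sheet. One of them, Polg2, an accessory subunit of the mitochondrial DNA polymerase, was at 1.15 in tuft cells in the authors' deposited table and between -0.09 and -0.01 in enterocytes, stem and goblet cells.

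Glycolysis makes ATP in the cytosol. Of its genes, 6 of 11 were low in enterocytes (median -0.11), 8 of 13 in stem cells (-0.14), 5 of 12 in goblet cells (-0.07), 5 of 13 in enteroendocrine cells (-0.01) and 7 of 12 in tuft cells (-0.18). High were 1 of them in enteroendocrine cells, 2 in tuft cells and 0 in the other sheets. The shares of all genes that were low were 14.4%, 31.5%, 23.1%, 34.8% and 58.9% in the same order. Those that were high were 1.84%, 0.315%, 3.95%, 16.1% and 24.2%. The low glycolysis counts in enteroendocrine and tuft cells were thus near the background. The cytosolic ribosomal protein genes were low in 43 of 67 (median -0.15), 56 of 79 (-0.18), 41 of 75 (-0.13), 10 of 76 (0.12) and 64 of 81 cases (-0.48) in the same order. They were high in 44 of 76 cases in enteroendocrine cells, where 29 of 82 members were, in 7 of 81 in tuft cells, in 2 of 75 in goblet cells and in 0 in enterocytes and stem cells. The medians of the ribosomal protein genes lay on the same side of 0 as those of the members in each sheet. The difference between members and either list was not tested.

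Across the authors' 8 clusters, which are numbered 0 to 7, members were concentrated among the markers of clusters 0 and 2. A marker was listed there at a log2 fold change of at least 0.25 over all other cells and detection in at least 25% of the cluster. Of the 127 markers of cluster 0, led by Lypd8, Reg3b and Krt19, 31 were members (24.4%), and of the 761 of cluster 2, led by Ptma, Olfm4 and ribosomal protein genes, 60 were (7.88%). Clusters 3, 6 and 7 had 1, 2 and 5, and clusters 1, 4 and 5 had 0. Over the markers of all clusters together, 99 of 2096 rows were members (4.72%). The share in cluster 2 was thus much nearer to that of all rows than the share in cluster 0. Of the members marking cluster 0, 29 also marked cluster 2, which is 93.5% of the former and 48.3% of the latter. The exceptions were Atp5d and Atp5j2. These clusters were drawn from all genes of the same cells, so the values describe them and test nothing.

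The complexes differed in which of these clusters they marked. Complexes IV and V were listed for cluster 0 at 60.0% and 63.2% of their members, complex III at 38.5%, complex I at 13.9% and complex II at 0%. For cluster 2 the shares were between 66.7% and 75% for every complex. Members of low detection can miss the limits of the table, and complexes I and II were the least detected. The strongest member of cluster 0 was Cox4i1, at 0.54 with detection in 94.0% of the cluster and 75.7% outside in the authors' deposited table. Atp5a1 and Cox7a2 followed with 0.49 and 0.47 in the authors' deposited table. The weakest were Ndufb5, Atp5j and Atp5d, with 0.26, 0.25 and 0.25 in that table. In cluster 2 the strongest were Ndufa4 at 0.86 (88.7% and 43.2%), Uqcr10 at 0.78 (85.8% and 46.6%) and Atp5g1 at 0.76 (84.7% and 40.1%) in the authors' deposited table. Ndufa9, Ndufb8 and Uqcrc1 were the weakest there, at 0.27, 0.27 and 0.26 in the authors' deposited table. Uqcc2 marked clusters 2, 6 and 7, with 0.43, 0.56 and 0.38 in the authors' deposited table. Cox7a2l marked clusters 2 and 6, with 0.45 and 0.50 in that table. Atp5d also marked cluster 3, at 0.33 in the authors' deposited table. Cluster 7, led by Krt18, Sh2d6 and Cd24a, had Atp5e, Ndufb1-ps, Ndufb3 and Ndufa7 at 0.53, 0.51, 0.39 and 0.36 in the authors' deposited table.

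**Figure D5:**
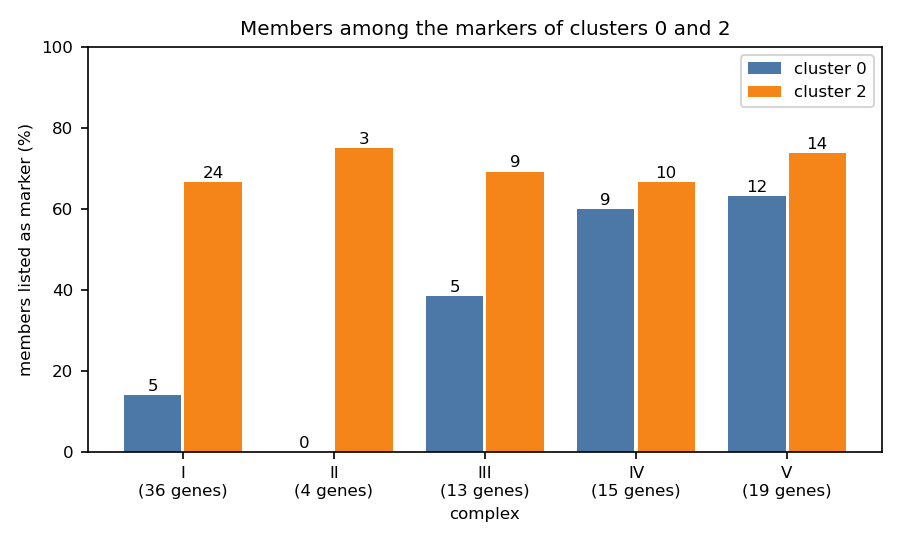
Share of the members of each complex (vertical, percent) that the authors list as markers of cluster 0 (blue) and cluster 2 (orange), with the number of genes above each bar. Complexes I and II have 5 and 0 genes for cluster 0 and 24 and 3 for cluster 2, whereas complexes IV and V have nearly as many for either.

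Members that mark cluster 0 had the lower fold changes between the groups in enterocytes. Their median was -0.15 for 31 genes, against -0.09 for the other 49 members, and the 96 other markers of cluster 0 had a median of -0.14. In stem cells the same medians were -0.18, -0.11 and -0.15, and in goblet cells -0.13, -0.08 and -0.06. This was not particular to cluster 0. Members marking cluster 2 had -0.11 in enterocytes, -0.16 in stem cells and -0.12 in goblet cells. The members not marking it had -0.07, -0.07 and -0.04. In enteroendocrine cells, members marking cluster 0 had 0.03 and the others 0.01. The part of detection in these differences was not tested. Markers of cluster 1, led by 4933405D12Rik, Fabp2 and Apoa1 and holding no member, had a median of 0.03 in enterocytes, over 240 genes. How the cells of either group fall into these clusters was not analysed here, and its part in the fold changes was not tested.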

How the data were processed

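Ileal epithelial cells of 1 pooled sample per genotype were measured by inDrops. DESeq2 1.30.1, Seurat, Cell Ranger and the build mm10 were used, per the submitters' processing notes, which state no role or order for them. Filters on cells, doublet treatment and the assignment of cell types are not stated in the sources used. Per the file headers, the authors' sheets give an average log2 fold change between 2 groups of cells, and the fraction of cells of either group in which a gene was detected, printed here as a percent. The marker table, labelled LR, gives the same for each cluster against other cells. The authors also deposited other values, a library sheet with the cell number of each sub-library, from which the mouse information was taken. It lists 4 sub-libraries for the control and 3 for the nociceptor-ablated sample, without numbers per cell type. The authors' p-values were computed over cells and were not used.

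Members, complexes, lists and alternatives were chosen with earlier results of these data known. Medians and counts past a log2 fold change of 0.1 were computed with pandas 2.3.3 and numpy 2.4.6 and set beside those of all listed genes; the summary was tested on simulated data. Named were the 5 lowest and 5 highest members per sheet at or above the median detection, the extremes of each complex, the 5 widest ranges over cell types, a fixed list of isoforms, and the strongest and weakest cluster markers; others, such as those low in every sheet, were named after their values were seen. Ndufa4 was placed in complex IV, and Ndufa4 counted in complex I was an alternative. RefSeq genes were matched by symbol (85) or synonym (2). Promoter and protein sequences were not analysed here.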

Additional observations from a re-analysis of the deposited data

Results flagged for a closer look

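Enteroendocrine cells stood on the other side of all listed genes from the remaining cell types. There the median of members minus that of all genes was 0.078. Enterocytes had -0.07, stem cells -0.06, goblet cells -0.07 and tuft cells -0.25. In enteroendocrine cells 29 of all 82 members were high, against 16.1% of all genes. Of the 29 members low in enterocytes, stem and goblet cells, 9 were high there, and these were singled out with the difference. In the authors' deposited table these were, in enteroendocrine cells, Cyc1 at 0.43, Ndufb10 at 0.37, Cox5a at 0.29, Atp5a1 at 0.27, Uqcrh at 0.22, Uqcr10 at 0.22, Sdhc at 0.20, Cox4i1 at 0.13 and Sdhb at 0.13. The contrast depends on the genes set beside the members: in stem cells the difference was 0.042 among genes detected in at least 50% of cells and 0.068 from widely detected genes (at least 70%), and from the latter it was -0.0019 in enteroendocrine cells. Each cell type had 1 sample per group, so these differences between cell types were not tested.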

How the results depend on the processing

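No paired analysis was possible because each genotype has 1 sample and the sheets name no sample. Over 128 recomputed values, 93 stayed alike, 30 moved and 5 changed sign. A median counted as moved when it left the 95% binomial interval of its order statistics over members, and a count when it changed by over 1.5 times. Part of the 93 could not move: leaving out genes at 0 removed no member in enterocytes, stem and goblet cells. Structural subunits alone were the same genes in complexes I and II. The interval treats members as independent, though all were measured in the same cells. For the 4 members of complex II even the full range falls short of 95%. The difference between members and all genes changed sign in stem cells among genes detected in at least 50% of cells (0.042), at 75% (0.035, added after the data were seen) and when both groups' widely detected genes (at least 70%) were the centre (0.068). With that centring it was -0.033 in enterocytes, -0.0069 in goblet cells, -0.0019 in enteroendocrine cells, where it changed sign, and -0.035 in tuft cells. At 50% detection it was -0.036 in enterocytes and -0.0050 in goblet cells, and at 75% -0.025 in goblet and 0.0092 in enteroendocrine cells. The median of complex I in tuft cells changed sign to 0.13 at 50% detection. The cause was not tested. Means, leaving out genes at 0, structural subunits alone, leaving out pseudogenes and the place of Ndufa4 moved no median beyond its interval.

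With a threshold of 0.25, low counts were 1 in enterocytes, 9 in stem, 7 in goblet and 3 in enteroendocrine cells. The shares of all genes were 1.55%, 4.39%, 2.76% and 6.47%. High counts were 0 in enterocytes, 0 in goblet, 9 in enteroendocrine and 5 in tuft cells, against 0.204%, 0.617%, 2.23% and 6.59% of all genes. Measured from the median of all genes, low counts were 25, 33, 26 and 9 in enterocytes, stem, goblet and enteroendocrine cells. The shares of all genes were 8.06%, 12.6%, 12.1% and 20.7%. High counts were 2 in stem and 6 in goblet cells, against 2.63% and 8.86% of all genes. At 50% detection, where fewer genes enter, low counts were 20 in enterocytes, 25 in goblet, 4 in enteroendocrine and 25 in tuft cells, and high counts 0, 0, 11 and 7. No share of all genes is given at that detection, so these counts have no background. The counts without genes at 0 and the overlap of low members at 50% detection were added after the data were seen. Depth is unknown, so no interval over cells was computed.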
